A study of Mus musculus with 12 samples.

Results

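The transcription factors and coactivators that set the output of mitochondrial genes were followed in pressure-loaded mouse hearts with and without the macrophage receptor Cd163. Members were taken by gene symbol, 10 of the 55357 identifiers in the deposited count table: the peroxisome proliferator-activated receptors Ppara (ENSMUSG00000022383) and Ppard (ENSMUSG00000002250), the coactivators Ppargc1a (ENSMUSG00000029167) and Ppargc1b (ENSMUSG00000033871), the estrogen-related receptors Esrra (ENSMUSG00000024955), Esrrb (ENSMUSG00000021255) and Esrrg (ENSMUSG00000026610), the retinoid X receptor Rxra (ENSMUSG00000015846), nuclear respiratory factor Nrf1 (ENSMUSG00000058440) and the mitochondrial DNA-binding factor Tfam (ENSMUSG00000003923). All 10 passed the filter on low counts, which left 15804 genes to test. Poly(A) RNA of whole-heart tissue was sequenced in 12 libraries from male mice, 3 in each of 4 groups. Wild-type mice (WT) were C57BL/6J, and the knockout mice (KO) were Cd163-/- on that same background, with no cell type named to which the deletion was restricted. At 8 weeks of age mice of either genotype had sham surgery or transverse aortic constriction (TAC), in which the aortic arch is tied over a 27-gauge needle so that the left ventricle pumps against raised pressure. How long after surgery the hearts were taken was not stated in the labels used here. The series title asks how Cd163 bears on heart failure under this load.

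Heart muscle draws most of its ATP from mitochondria, and the genes for that machinery are split between the nucleus and the mitochondrial genome. In the nucleus, ERR receptors act on genes of the respiratory chain and the citric acid cycle, and PPAR receptors, paired with RXR, act on genes of fatty acid uptake and oxidation. The PGC-1 coactivators encoded by Ppargc1a and Ppargc1b have little DNA binding of their own and act by docking on these receptors and on NRF1. NRF1 is known for binding promoters of respiratory chain genes and of Tfam, whose protein enters mitochondria, coats the mitochondrial genome and starts its transcription.

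Total counts ran from 14150109 to 22602225 per library. Heart muscle genes were present in every library, with none of 10 cardiomyocyte markers at 0, and Cd163 itself was lower in every KO library (46 to 112 counts) than in every WT library (255 to 592 counts). 1 sham library did not sit with its group: the Spearman correlation of KO sham replicate 1 over genes was 0.985 to 0.990 with the KO TAC libraries and 0.927 to 0.935 with the other KO sham libraries. Whether the sham label of that library is right was not tested. Every KO sham mean and SD given with 3 libraries, and each test against that group, includes it. WT TAC replicate 1 was as close to KO TAC (0.966 to 0.971) as to the other WT TAC libraries (0.967 to 0.968). Results are therefore given with all 12 libraries and, where they rest on these, without them, a choice made because of how they looked. The labels do not name the animal behind each library, and the p-values therefore reflect only how far these samples spread, part of which may be technical.

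Several marker lists moved with the KO TAC libraries and with KO sham replicate 1. The summed level of the cardiomyocyte markers, in TMM-scaled CPM (read counts relative to the library total, corrected by the trimmed mean of M values), was 72120 to 74040 in WT sham, 61730 to 68560 in WT TAC, 60100 to 64590 in KO sham replicates 2 and 3, 30420 in KO sham replicate 1 and 38660 to 41040 in KO TAC. The 4 nuclear-retained RNAs summed to 4151 to 5500 CPM in KO TAC libraries, to 3598 CPM in replicate 1 of KO sham and to 2287 to 3481 CPM in WT TAC. Their sums were 1550 to 1715 CPM in WT sham and 1159 to 1194 CPM in KO sham replicates 2 and 3. For the 6 adipocyte markers the sums were 20.0 to 25.7 CPM in KO TAC libraries, 24.4 CPM in replicate 1 of KO sham and at most 8.94 CPM elsewhere. The 5 atrial markers summed to 643 to 2354 CPM in KO TAC, 251 to 545 in WT TAC, 81.3 to 1731 in WT sham, 263 to 403 in KO sham replicates 2 and 3 and 2987 in KO sham replicate 1. In the test of KO against WT after TAC, 6 of 10 cardiomyocyte markers fell, 4 of 5 atrial markers, all 5 tested adipocyte markers and 1 of 4 nuclear-retained RNAs rose. Of the 7 fibroblast markers 1 rose, of the 7 macrophage markers 1 fell, and none of the 6 endothelial or the 2 tested skeletal muscle markers passed. No gene of the cardiomyocyte, atrial, adipocyte or nuclear-retained lists was at 0 in any group, while the skeletal muscle lists had Myh4 at 0 in all 4 groups. The part of these markers in the results was not tested. In bulk tissue, fewer cells of a type and less RNA per cell cannot be told apart.

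Per kilobase of exon the 10 regulators spanned a wide range in the WT sham heart. Esrra stood highest at 24.7 ± 1.11 CPM per kb (SD, n = 3), followed by Ppargc1a at 14.5 ± 1.98 and Rxra at 9.58 ± 0.864. Tfam at 7.82 ± 0.413 and Esrrg at 6.73 ± 1.42 did not differ beyond their spread, nor did Ppara at 5.21 ± 2.55, Esrrb at 4.54 ± 0.602 and Ppargc1b at 3.47 ± 0.846. Ppard at 2.56 ± 0.122 and Nrf1 at 1.096 ± 0.0558 closed the order. In KO TAC hearts Esrra (15.3 ± 1.01 CPM per kb), Ppargc1a (6.59 ± 2.55) and Rxra (6.16 ± 0.638) were still the 3 highest, the last pair within their spread. Tfam was then level with Ppargc1b, at 3.06 ± 0.0888 and 3.29 ± 0.765 CPM per kb, and Ppara came last at 0.986 ± 0.320, below Nrf1 at 1.32 ± 0.102. Exon lengths are those of the GENCODE M21 gene models and may not be those the authors counted on.

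After TAC, KO hearts had less Tfam and Esrrb and more Nrf1 than WT hearts. Tfam was 2.45-fold lower and Esrrb 2.62-fold lower, and Nrf1 was 1.42-fold higher. These were 3 of the 10 regulators, 2 lower and 1 higher, in a comparison in which edgeR called 3219 of 15804 genes (20.4%). The other 7 did not pass: Esrra, Esrrg, Ppara, Ppargc1a and Rxra had log2 fold changes from −1.15 to −0.27, and Ppard and Ppargc1b stood at 0.07 and 0.41. The median over the 10 was −0.68 and over all tested genes −0.02.

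**Figure D1:**
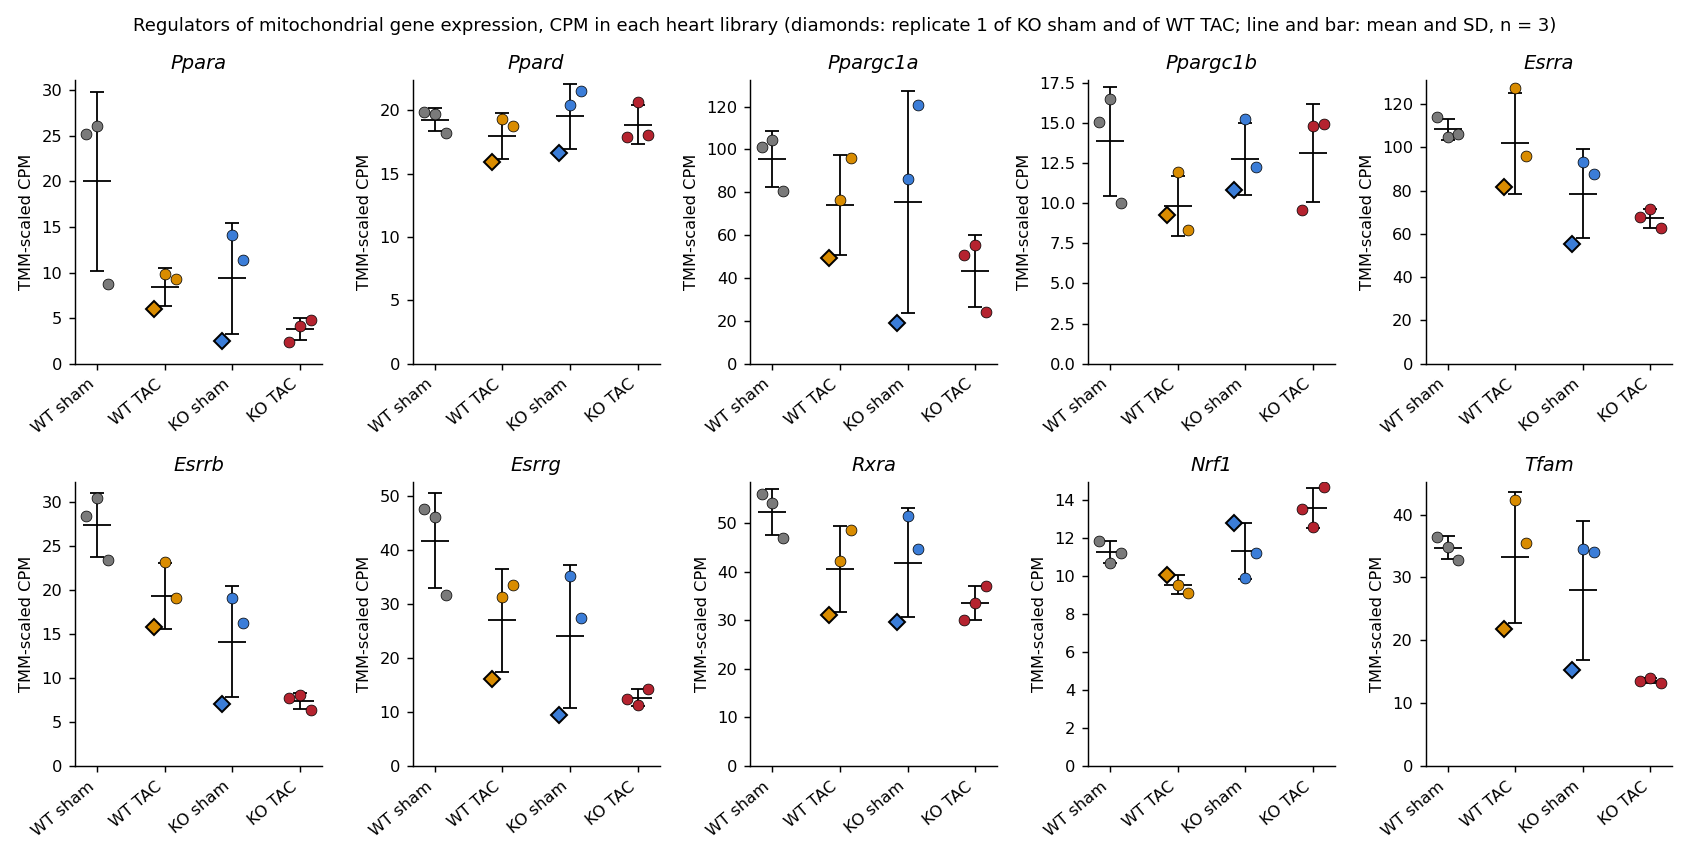
TMM-scaled CPM (vertical axes, from 0) of each regulator in the 12 libraries, by group (horizontal axes); points are libraries, diamonds mark replicate 1 of KO sham and of WT TAC, and lines and bars are the mean and SD of 3. In the panels of Tfam, Esrra, Esrrb, Esrrg and Ppara all KO TAC points lie below all WT TAC points, and in that of Nrf1 above them.

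Tfam had no overlap between the TAC groups. It stood at 13.5, 14 and 13.2 CPM in KO TAC replicates 1, 3 and 5 and at 21.8, 42.3 and 35.5 CPM in the WT TAC replicates of those numbers. In sham hearts it stood at 36.5, 34.8 and 32.8 CPM in WT replicates 1, 2 and 3 and at 15.2, 34.6 and 34.1 CPM in KO. The KO TAC values lay below all others, with KO sham replicate 1 just above them and WT TAC replicate 1 next. The log2 fold change of KO against WT after TAC was −1.29 ± 0.30 (SE), with an edgeR adjusted p of 0.0221 (Benjamini-Hochberg over all tested genes, as for every adjusted p given here). Without both libraries that stood apart it was −1.51 ± 0.11 (adjusted p = 1.64e-07). WT TAC replicate 1, left out there, was the WT TAC library closest to KO TAC. Values without KO sham replicate 1, without WT TAC replicate 1 or without both, here and below, follow a choice made on these same data. They are not independent support.

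Nrf1 went the other way. It stood at 13.5, 12.6 and 14.7 CPM in KO TAC and at 10.1, 9.52 and 9.09 CPM in WT TAC replicates 1, 3 and 5. The sham values were 11.9, 10.7 and 11.2 CPM in WT and 12.8, 9.90 and 11.2 CPM in KO replicates 1, 2 and 3. All KO TAC values were above all WT values, and KO sham replicate 1 was the one other library in their range. After TAC the log2 fold change was 0.51 ± 0.14 (edgeR adjusted p = 0.0313), and 0.56 ± 0.13 without both libraries that stood apart (adjusted p = 0.00306). Nrf1 rested on 549 to 686 counts summed over a group, the fewest per kilobase in WT.

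NRF1 is known to bind a palindrome with the core CGCATGCG, and the Tfam promoter is a textbook target of NRF1 and of GABP, an ETS-family factor, so the letters before the start site are shown for Tfam and, as the one regulator whose window held the NRF1 core, for Ppara. They are the 250 bases upstream of the start site in RefSeq, build GRCm38.p6, at chr10:71238045-71238294 on the reverse strand for Tfam and chr15:85735526-85735775 on the forward strand for Ppara, both printed 5′ to 3′ on the gene's strand. Capitals mark CCGGAAG, an ETS-type element, in Tfam and CGCATGCG in Ppara.
Tfam: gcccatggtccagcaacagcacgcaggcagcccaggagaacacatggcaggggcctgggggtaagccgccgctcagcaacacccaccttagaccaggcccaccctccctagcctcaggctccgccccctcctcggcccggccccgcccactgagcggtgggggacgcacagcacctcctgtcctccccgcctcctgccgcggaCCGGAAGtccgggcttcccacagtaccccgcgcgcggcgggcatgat
Ppara: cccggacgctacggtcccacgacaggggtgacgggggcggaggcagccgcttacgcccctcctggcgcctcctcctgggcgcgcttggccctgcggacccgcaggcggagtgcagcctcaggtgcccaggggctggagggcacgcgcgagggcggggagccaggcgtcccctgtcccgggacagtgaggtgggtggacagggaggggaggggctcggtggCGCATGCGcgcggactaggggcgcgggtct
The CCGGAAG of Tfam begins 47 bases before the start site and the CGCATGCG of Ppara 30 bases before it. Windows of 300 bases, 250 before and 50 after the start, were searched on both strands for 9 regulators with 15 windows. CGCATGCG was in 1 of these 15 and in 1.87% of 32851 windows of all genes. TNAAGGTCA, the ERR element, and TGACGTCA, the CREB element, were in none of the 15 and in 1.28% and 1.79% of all. AGGTCA, the core that nuclear receptors bind and that also forms the end of TNAAGGTCA, was in 1 window of Rxra, on each strand, and in 16.3% of all. CCGGAAG, which was added to the search after the windows had been seen, was in the Tfam window and in 8.86% of all. A match is a description of these letters only.

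Among the estrogen-related receptors, which bind DNA without a known natural ligand, Esrrb was the one that passed. It stood at 7.72, 8.06 and 6.43 CPM in KO TAC and at 15.8, 23.3 and 19.1 CPM in WT TAC replicates 1, 3 and 5. In sham hearts it stood at 28.4, 30.5 and 23.4 CPM in WT and at 7.03, 19.1 and 16.3 CPM in KO. Both WT groups lay above KO TAC with no overlap, and KO sham replicate 1 was within the KO TAC range. The log2 fold change after TAC was −1.39 ± 0.30 (edgeR adjusted p = 0.0202) and −1.51 ± 0.16 without both libraries that stood apart (adjusted p = 2.98e-06).

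Esrra, the most abundant receptor of this family in the heart, stood at 67.6, 71.4 and 62.6 CPM in KO TAC and at 81.8, 128 and 96.2 CPM in WT TAC. Its sham values were 114, 105 and 106 CPM in WT and 55.2, 93.1 and 87.6 CPM in KO. The TAC groups did not overlap, and KO sham replicate 1 was the lowest of the 12 libraries. The log2 fold change after TAC was −0.60 ± 0.21 and did not pass (edgeR adjusted p = 0.0616), but it was −0.73 ± 0.12 and passed without both libraries that stood apart (adjusted p = 0.000176). The gene model of Esrra shares 73 exonic bases with Trmt112 on the opposite strand and 91 with Mir6990, and the labels do not say whether strand was used in counting.

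Esrrg, a receptor known for its role in the switch of the newborn heart to oxidative metabolism, stood at 12.4, 11.3 and 14.4 CPM in KO TAC and at 16.1, 31.3 and 33.6 CPM in WT TAC. The sham values were 47.6, 46.1 and 31.7 CPM in WT and 9.42, 35.3 and 27.5 CPM in KO. WT TAC replicate 1 was closer to the KO TAC values than to the other WT TAC values, although the groups did not overlap. Between the TAC groups it had a log2 fold change of −1.09 ± 0.41 (edgeR adjusted p = 0.0700), and −1.35 ± 0.17 without both libraries that stood apart (adjusted p = 2.74e-05).

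Of the PPAR receptors, Ppara, which drives fatty acid oxidation genes, stood at 2.41, 4.15 and 4.79 CPM in KO TAC and at 6.00, 9.89 and 9.26 CPM in WT TAC. Its sham values were 25.3, 26.1 and 8.70 CPM in WT and 2.53, 14.2 and 11.4 CPM in KO. The TAC groups did not overlap, and the WT sham libraries were spread, with replicate 3 inside the WT TAC range. The log2 fold change of KO against WT after TAC was −1.15 ± 0.57 (edgeR adjusted p = 0.149), and it did not pass without both libraries that stood apart either (−1.33 ± 0.51, adjusted p = 0.0580).

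Ppard, the PPAR of broad tissue range, was nearly level, from 15.9 to 20.7 CPM in the 6 TAC libraries and from 16.7 to 21.6 CPM in the 6 sham libraries. Its log2 fold change after TAC was 0.07 ± 0.14 (edgeR adjusted p = 0.734). Rxra, the partner of PPARs on DNA, stood at 30.1, 33.6 and 37.1 CPM in KO TAC and at 31.1, 42.1 and 48.5 CPM in WT TAC, which overlapped through WT TAC replicate 1. In sham hearts Rxra stood at 55.9, 54.1 and 47.0 CPM in WT and at 29.6, 51.5 and 44.6 CPM in KO. Its log2 fold change after TAC was −0.27 ± 0.21 (edgeR adjusted p = 0.353), and −0.42 ± 0.12 without both libraries that stood apart (adjusted p = 0.0102).

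Neither coactivator passed with 12 libraries. Ppargc1a, the PGC-1 gene induced by exercise and fasting, stood at 50.5, 55.5 and 24.3 CPM in KO TAC and at 49.4, 76.5 and 95.9 CPM in WT TAC. The sham values were 101, 105 and 80.5 CPM in WT and 19.2, 86.2 and 121 CPM in KO. The lowest library was KO sham replicate 1 and the highest KO sham replicate 3, and the TAC groups overlapped. KO against WT after TAC gave a log2 fold change of −0.77 ± 0.52 (edgeR adjusted p = 0.276), and −0.99 ± 0.33 without both libraries that stood apart (adjusted p = 0.0330). Ppargc1b, its close relative, stood at 9.59, 14.8 and 15.0 CPM in KO TAC and at 9.29, 11.9 and 8.33 CPM in WT TAC, and had 10.04 to 16.5 CPM in the sham libraries. Its log2 fold change after TAC was 0.41 ± 0.24 (edgeR adjusted p = 0.213), and the groups overlapped.

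Of the 10 regulators, 5 were lower in every KO TAC than in every WT TAC library, where 24.3% of all tested genes were, and 1 was higher in every one, where 22.7% were. The calls depended on every library of the compared groups other than WT TAC replicate 1. Without WT TAC replicate 3 or 5, or KO TAC replicate 1, 3 or 5, no regulator passed, at adjusted p of 0.0641 to 0.0879 for Tfam, 0.0624 to 0.0813 for Esrrb and 0.0847 to 0.101 for Nrf1, and the genes called in all numbered 43 to 437. Nrf1 also missed the threshold without WT sham replicate 1 (edgeR adjusted p = 0.0523) and without the filter on low counts (0.162). Without KO sham replicate 1, 6 regulators passed (Esrra, Esrrb, Esrrg, Ppara and Tfam lower, Nrf1 higher), in a fit that called 40.7% of genes. Without both libraries that stood apart, 7 passed (Ppargc1a, Esrra, Esrrb, Esrrg, Rxra and Tfam lower, Nrf1 higher), with 53.8% of genes called. DESeq2 on all 12 libraries called 5 (Esrra, Esrrb, Esrrg and Tfam lower, Nrf1 higher) and 27.0% of genes. The mitochondrial genome gave 44.0 to 51.3% of the reads counted in KO TAC and 24.8 to 32.5% in WT TAC libraries. In sham libraries this share was 35.1 to 36.9% in WT, 31.6% and 30.5% in KO replicates 2 and 3 and 51.0% in KO replicate 1. With the counts of the mitochondrial genome left out, Tfam stood at −1.31 ± 0.30, Esrrb at −1.40 ± 0.31 and Nrf1 at 0.49 ± 0.14, and all 3 still passed (edgeR adjusted p = 0.0225, 0.0209 and 0.0330).

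**Figure D2:**
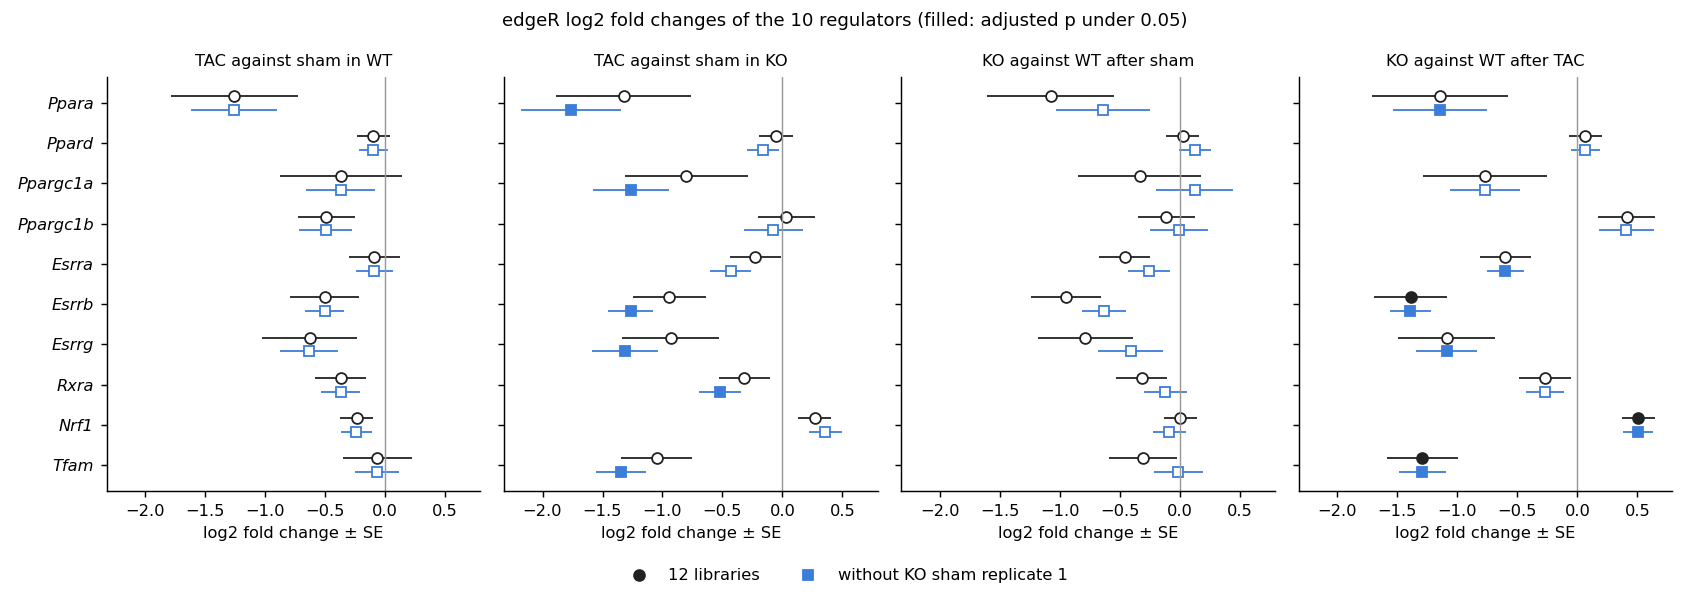
Log2 fold change ± SE (horizontal axes) of the 10 regulators in 4 comparisons, from the edgeR fit of 12 libraries (circles) and of 11 without KO sham replicate 1 (squares); filled symbols have an adjusted p under 0.05. With 12 libraries, filled circles stand for Esrrb, Tfam and Nrf1 in KO against WT after TAC and for no regulator in the other comparisons.

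TAC in WT hearts left no regulator past the test, and all 10 fold changes were negative. The largest was that of Ppara at −1.26 ± 0.53 (edgeR adjusted p = 0.281), from 20.0 ± 9.80 to 8.38 ± 2.09 CPM (SD, n = 3). Esrrg stood at −0.63 ± 0.39, Esrrb at −0.50 ± 0.29, Ppargc1b at −0.49 ± 0.24 and Ppargc1a at −0.37 ± 0.51, while Esrra and Tfam stood at −0.09 and −0.06. The background was 5 of 15804 genes called (0.0316%), with 1 regulator at an unadjusted p under 0.05, and DESeq2 called no regulator and 2.93% of genes. Esrrb and Nrf1 had all WT TAC values below all WT sham values, where 13.7% of all tested genes did, and the log2 fold change of Nrf1 was −0.24 ± 0.14. No regulator passed without KO sham replicate 1 (6.53% of genes called) or without both libraries that stood apart (6.18%). In the latter fit Esrra and Tfam had a positive sign, at 0.06 ± 0.12 and 0.18 ± 0.11.

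In KO hearts, TAC against sham gave a call for no regulator or any other gene with 12 libraries (0.0%), 4 regulators having an unadjusted p under 0.05. The estimates were −1.05 ± 0.29 for Tfam and −0.94 ± 0.30 for Esrrb (edgeR adjusted p = 0.103 for both), −1.32 ± 0.56 for Ppara and −0.93 ± 0.40 for Esrrg. DESeq2 called Tfam and Esrrb lower, 2 of the 10, and 12.4% of genes. Without KO sham replicate 1, 6 regulators fell and none rose, in a fit that called 47.6% of genes: Ppara by 1.76 ± 0.42, Tfam by 1.35 ± 0.21, Esrrg by 1.31 ± 0.27, Esrrb by 1.26 ± 0.19, Ppargc1a by 1.26 ± 0.32 and Rxra by 0.52 ± 0.18 on the log2 scale (edgeR adjusted p from 0.000393 for Esrrb to 0.0287 for Rxra). In that fit Esrra stood at −0.43 ± 0.17 (adjusted p = 0.0518) and Nrf1 at 0.36 ± 0.14 (0.0505). The library left out was the KO sham library closest to KO TAC, which tilts this fit towards a difference between the groups. Only KO sham replicates 2 and 3 remained, and the p-values of this fit are not independent support.

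Between genotypes after sham surgery no regulator passed. The gene nearest to it was Esrrb, with 14.1 ± 6.31 CPM in KO and 27.5 ± 3.64 CPM in WT and a log2 fold change of −0.95 ± 0.29 (edgeR adjusted p = 0.275). Ppara stood at −1.08 ± 0.53, Esrrg at −0.79 ± 0.39 and Esrra at −0.46 ± 0.21, and Nrf1 at 0.005 ± 0.137. All KO sham values of Esrra and Esrrb were below all WT sham values, as were those of 10.4% of all tested genes. edgeR called 1 gene in all (0.00633%), with 1 regulator at an unadjusted p under 0.05, and DESeq2 called no regulator and 1.36% of genes. Without KO sham replicate 1, again no regulator passed (0.241% of genes called), Esrrb stood at −0.63 ± 0.18 and Tfam at −0.01 ± 0.21.

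The difference between the TAC effect in KO and that in WT was tested as an interaction, and no gene passed with 12 libraries (0.0%). Tfam had −0.98 ± 0.41 and Nrf1 0.50 ± 0.19 (edgeR adjusted p = 0.530 and 0.503), and these were the 2 regulators with an unadjusted p under 0.05. DESeq2 called no regulator and 0.43% of genes. Without KO sham replicate 1 Tfam passed, at −1.28 ± 0.28 (adjusted p = 0.0156), where 12.1% of genes did. Without both libraries that stood apart 5 regulators passed, where 36.1% of genes did: Tfam at −1.51 ± 0.15, Esrrg at −0.95 ± 0.24, Esrrb at −0.89 ± 0.21, Esrra at −0.48 ± 0.17 and Nrf1 at 0.63 ± 0.19. The comparisons share groups with one another, so their values are given side by side only.

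The pathway around these regulators was read from 6 lists of genes, described by counts and medians in KO against WT after TAC, where the median over all tested genes was −0.02, with 8.63% of them called higher and 11.7% called lower. Genes bound by PPARs in fat oxidation had the median farthest from 0 of the 6 lists. The cardiomyocyte markers, which are not among the 6, had medians from −1.10 to −0.98 with each library left out in turn. How far the lists follow heart muscle genes at large was not tested. Of 27 tested PPAR targets 19 fell and none rose, with a median log2 fold change of −1.27. Fabp3, the fatty acid carrier of heart muscle, had 2911 ± 218 CPM in WT and 889 ± 33.5 CPM in KO (SD, n = 3), a log2 fold change of −1.71 ± 0.33 (edgeR adjusted p = 0.0165). Cd36, the fatty acid transporter of the cell surface, fell from 1576 ± 258 to 647 ± 34.1 CPM, and Ehhadh, a peroxisomal oxidation enzyme, from 12.0 ± 1.60 to 5.76 ± 0.758 CPM. Of 27 targets of ERR and PGC-1, which share Fabp3, Cpt1b and Acadm with the PPAR list, 12 fell and none rose, with a median of −0.69. They included Cycs, which encodes cytochrome c (from 529 ± 63.7 to 213 ± 6.96 CPM), and Acadm, the medium-chain acyl-CoA dehydrogenase (from 676 ± 223 to 182 ± 18.1 CPM).

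Genes that act on the mitochondrial genome had a negative median and the transcripts of that genome a positive one, a difference that was not tested. Of 22 nuclear genes for transcription, replication and RNA handling of mitochondrial DNA, 7 fell and 2 rose, with a median of −0.59. Slirp, a stabilizer of mitochondrial mRNA, fell by 1.48 on the log2 scale (edgeR adjusted p = 0.0170). Its level was low, at 3.47 ± 0.603 CPM in WT TAC and 1.24 ± 0.118 CPM in KO TAC. Hsd17b10, a subunit of mitochondrial RNase P, fell by 1.11, and Mterf3, a repressor of mitochondrial transcription, rose by 0.81. Of the 13 protein genes of the mitochondrial genome 2 rose and none fell, which is no larger a share than the 20.4% called over all genes. All 13 estimates were positive and the median was 0.85. mt-Nd5, a subunit of complex I, had 12810 ± 4629 CPM in WT TAC and 37270 ± 6094 CPM in KO TAC (log2 fold change 1.54 ± 0.34, edgeR adjusted p = 0.0210). For mt-Co1, a subunit of complex IV, these were 82670 ± 31840 and 170900 ± 24150 CPM (edgeR adjusted p = 0.0480). In sham hearts mt-Nd5 had 29600 ± 2021 CPM in WT and 28630 ± 11600 CPM in KO, and mt-Co1 had 125300 ± 3082 and 127000 ± 46350 CPM. For both genes the WT TAC mean lay below the sham means and the KO TAC mean above them. The share of counts from the mitochondrial genome and the summed nuclear-retained RNAs were both high in the KO TAC libraries, where Tfam was lowest. Both were also high in KO sham replicate 1, where Tfam was next lowest. How these bear on each other was not tested.

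Partners and upstream factors were called about as often as genes in general. Of 24 partners and coregulators of nuclear receptors, 4 rose and 1 fell, with a median of 0.10, a count near the 20.4% of all genes called. The acetyltransferase Kat2a rose by 0.99 and the coactivator Ncoa3 by 0.85, while the methyltransferase Carm1 fell by 0.78 on the log2 scale. Of 25 other factors and kinases, 3 rose and 3 fell, with a median of −0.02, again near that share. Flcn, a regulator of AMPK and mTOR signalling, rose by 0.80, the antioxidant factor Nfe2l2 by 0.64 and Gabpb1, the partner subunit of the ETS factor GABP, by 0.63.

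These list counts rested on the same libraries as those of the regulators. Without WT TAC replicate 3 or 5, or KO TAC replicate 1, 3 or 5, at most 2 genes of any of the 6 lists and at most 3 of any marker list passed, while the medians ran from −1.32 to −1.16 for PPAR targets, from −0.70 to −0.66 for ERR targets and from 0.66 to 0.97 for the mitochondrial genome. Without KO sham replicate 1 the genes that passed were 25 lower PPAR targets, 22 lower and 1 higher ERR targets, 14 lower and 2 higher mitochondrial DNA genes, 11 higher genes of the mitochondrial genome, 7 higher and 6 lower coregulators and 6 higher and 3 lower upstream factors. In the other comparisons no gene of the 6 lists passed with 12 libraries. The medians for TAC in WT were −0.08 for PPAR targets, 0.07 for ERR targets, −0.01 for the mitochondrial DNA genes, −0.21 for the mitochondrial genome, −0.13 for coregulators and −0.22 for upstream factors, against 0.01 for all genes. Angptl4, a PPAR target that inhibits lipoprotein lipase, stood at 2.13 ± 0.35 for TAC in WT (edgeR adjusted p = 0.0548) and passed without KO sham replicate 1 (adjusted p = 0.00726). After TAC it was one of the 19 targets that fell in KO against WT.

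**Figure D3:**
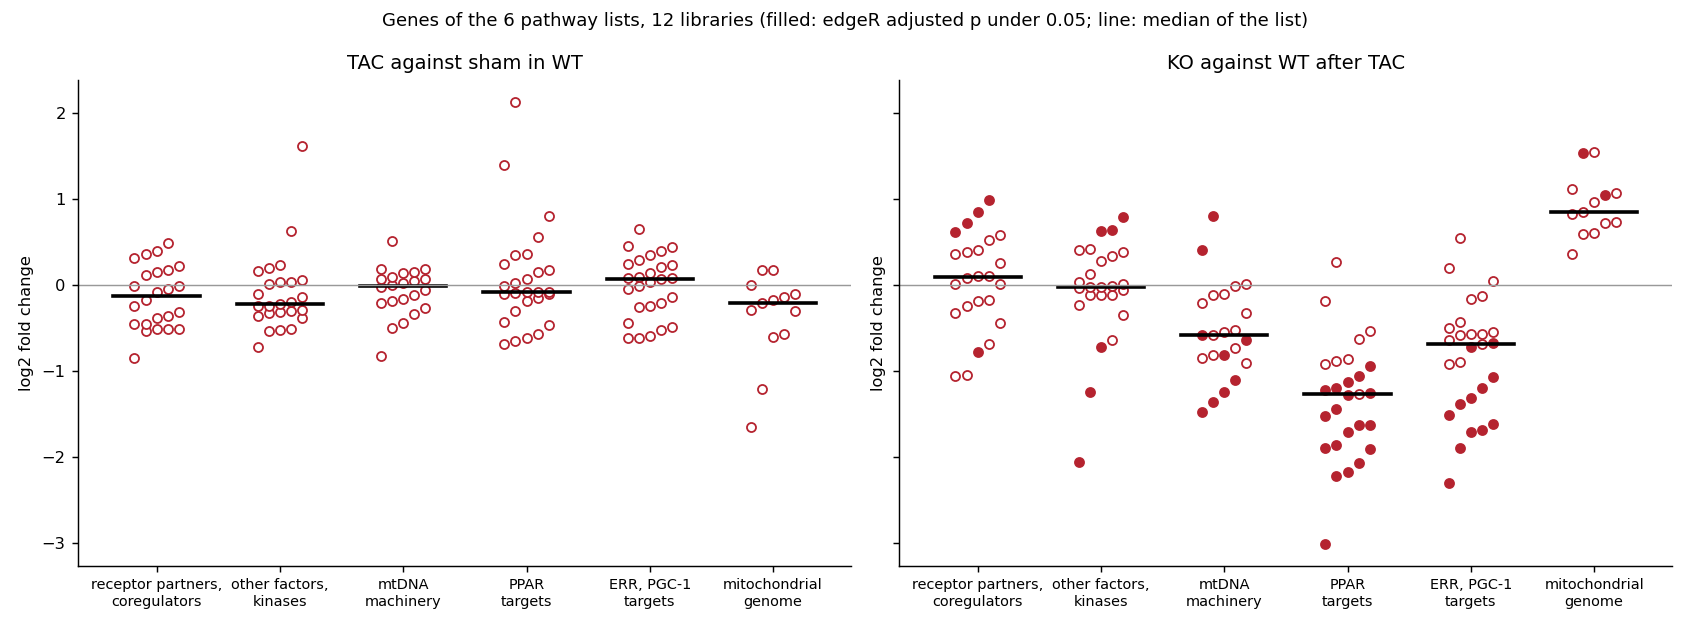
Log2 fold change (vertical axis) of each gene of the 6 lists (horizontal axis) for TAC against sham in WT and for KO against WT after TAC, 12 libraries; points are genes, filled where the edgeR adjusted p was under 0.05, and bars are list medians. In the second comparison the medians lie at −1.27 for PPAR targets and 0.85 for the mitochondrial genome.

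Ratios of 2 regulators within a library do not depend on scaling and are given as a description. The log2 ratio of Tfam to Nrf1 counts was 1.62 ± 0.08 in WT sham, 1.74 ± 0.55 in WT TAC and −0.001 ± 0.151 in KO TAC (SD, n = 3). In KO sham it was 1.80 and 1.60 in replicates 2 and 3 and 0.25 in replicate 1, and the lowest WT value was 1.11 in WT TAC replicate 1. That of Ppara to Ppard was −0.11 ± 0.83 in WT sham, −1.13 ± 0.24 in WT TAC, −1.39 ± 1.17 in KO sham and −2.37 ± 0.49 in KO TAC, with −2.72 in KO sham replicate 1. That of Ppargc1a to Ppargc1b was 2.81 ± 0.18, 2.87 ± 0.58, 2.21 ± 1.27 and 1.67 ± 0.88 in the same order. The highest KO TAC value, 2.40 in replicate 1, was just under the lowest WT value, 2.41 in WT TAC replicate 1. KO TAC ran from 0.70 to 2.40 and KO sham, which overlapped it, from 0.82 to 3.31. That of Esrra to Esrrg was 1.40 ± 0.31, 1.96 ± 0.42, 1.87 ± 0.60 and 2.41 ± 0.27.

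**Figure D4:**
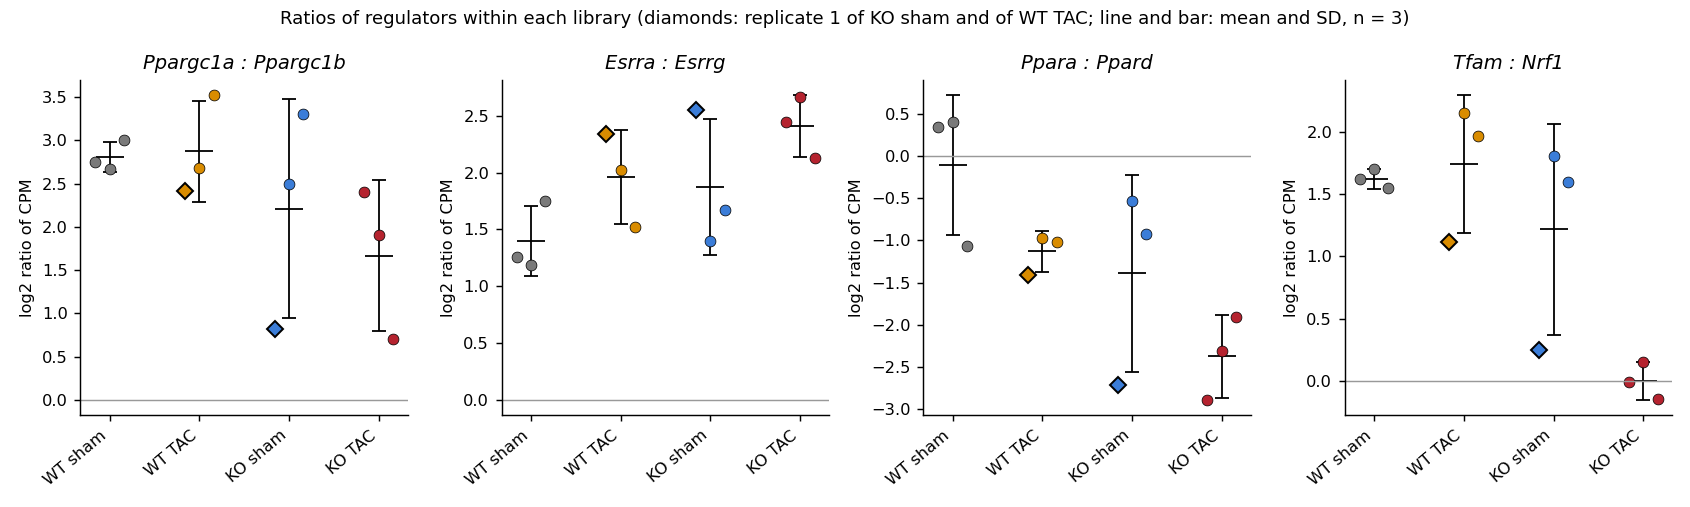
Log2 ratio of the scaled counts of 2 regulators in each library (vertical axes) by group (horizontal axes); points are libraries, diamonds mark replicate 1 of KO sham and of WT TAC, and lines and bars are the mean and SD of 3. For Tfam to Nrf1 the KO TAC points lie around 0, next to the KO sham diamond at 0.25, and all others are at 1.11 or above.

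Across the 12 libraries, which share groups and the library that stood with KO TAC, several regulators varied together. Pearson correlations of log2 CPM over 12 libraries were 0.956 for Esrrg with Rxra, 0.949 for Ppara with Esrrg, 0.940 for Esrrb with Tfam and 0.940 for Esrra with Esrrb. After group means were removed they were 0.957, 0.891, 0.920 and 0.918. Both libraries that stood apart remain in all correlations with group means removed, and no r without them is given. Nrf1 was negative with 8 of the other 9, at −0.803 with Tfam (−0.693 with group means removed), and stood at 0.264 with Ppargc1b (−0.274 with group means removed). Ppargc1b had 0.049 with Tfam and 0.102 with each of Ppargc1a and Esrra, and 0.406, 0.179 and 0.444 with group means removed. Ppard had 0.338 with Esrrb, 0.423 with Esrra, 0.432 with Tfam and 0.495 with Esrrg, and 0.851, 0.860, 0.898 and 0.801 with group means removed.

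The genes outside the set with the most similar pattern, ranked by Pearson r over the 12 libraries among genes with a mean of at least 10 CPM, are named for 9 regulators. For Tfam these were Arl6ip5 (0.993), Tomm70a (0.992), which encodes a protein import receptor of the mitochondrial outer membrane, and Pde6d (0.992). Esrrg was closest to Acadsb, a branched-chain acyl-CoA dehydrogenase, Lrrc20 and Mfn2, the mitochondrial fusion protein that is on the ERR target list (0.993 to 0.994). Esrrb was closest to Kcnj2, a subunit of the inward rectifier potassium channel (0.987), and Ppargc1a to Mypn, the sarcomere protein myopalladin (0.960). Rxra was closest to Ulk2 (0.985), Esrra to Rnf187 (0.977), Ppara to D5Ertd579e (0.976), Ppard to Cul1 (0.937) and Ppargc1b to Ythdc2 (0.901). With the group means removed the leading genes of these 9 had r of 0.874 for Ythdc2 with Ppargc1b up to 0.993 for Acadsb with Esrrg. These values, too, include both libraries that stood apart.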

How the data were processed

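Per the labels' protocols, oligo(dT) beads selected the mRNA, which was sequenced as pairs of 150 bp. The submitters' processing notes name HISAT2 without a version. No source used here gives the build, the annotation, the counter or its use of strand. The deposited table holds raw read counts per Ensembl gene for 12 libraries, not normalized. Symbols came from a reference table that matched 52081 of 55357 identifiers. 23267 identifiers had no count in any library.

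Tests used the quasi-likelihood method of edgeR 4.0.16, run under R 4.3.3 (scaling by TMM, filterByExpr by group, robust quasi-likelihood fit of 4 group coefficients, 8 residual degrees of freedom, Benjamini-Hochberg over 15804 genes, threshold 0.05), after a run on simulated counts. The 5 comparisons were TAC against sham in each genotype, KO against WT after each surgery, and the interaction. Alternatives were DESeq2 size factors in edgeR, DESeq2 1.42.0, no filter on low counts, counts of the mitochondrial genome left out, a replicate block, KO sham replicate 1 and WT TAC replicate 1 left out together, and each library left out. No 2 replicates agreed within counting noise.

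The members and the lists were chosen with earlier results of these data known. The 6 pathway lists are those described in the report, and marker lists covered cardiomyocytes, atrium, fibroblasts, endothelium, macrophages, adipocytes, skeletal muscle and nuclear-retained RNA. Named genes are the members, Cd163, up to 3 genes per list with the smallest p and up to 3 most similar genes per member (log2 CPM with a prior count of 2); 1 such gene is not reported here. Genes outside this rule were named after their values were seen. Promoter windows came from RefSeq, build GRCm38.p6, and the window of Ppargc1b was not used here. Protein sequences were not used here.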

Additional observations from a re-analysis of the deposited data

How the results depend on the processing

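Counts were lowest for 2 members: Ppara rested on 161 counts over the KO TAC libraries and Esrrb on 313. No member was called in KO against WT after TAC when any TAC library other than WT TAC replicate 1 was left out. With a replicate block that comparison called 2411 genes and Tfam, Esrrb and Nrf1 still passed, while TAC in WT went from 5 genes to 0. Deviations of same-numbered libraries correlated between −0.194 and 0.618, the highest for WT TAC replicate 1 with KO sham replicate 1. The labels do not say what the numbers stand for, and whether same-numbered libraries share a batch was not tested.

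Genes called, in the order TAC in WT, TAC in KO, KO against WT after sham and the interaction (5, 0, 1 and 0 with edgeR), numbered 466, 1817, 200 and 79 with DESeq2, 137, 687, 80 and 43 without the filter, and 989, 8879, 295 and 5774 with KO sham replicate 1 and WT TAC replicate 1 left out together. KO against WT after TAC (3219) had 8614 in the latter fit, and the interaction had 2 with counts of the mitochondrial genome left out. With each library left out in turn the counts ran from 1 to 1058 for TAC in WT, 0 to 7708 for TAC in KO, 0 to 39 after sham, 43 to 6585 for KO against WT after TAC and 0 to 1961 for the interaction; the highest each time was without KO sham replicate 1. Members called in TAC against sham in KO (0) were 2 with DESeq2 (Tfam and Esrrb), 1 without the filter, 8 without both libraries and 0 to 6 with 1 left out. After sham (0) the count was 1 without both libraries, and for the interaction (0) it was 5, with 0 to 1 when 1 was left out. For KO against WT after TAC (3) it was 5 with DESeq2, 7 without both and 0 to 6 with 1 left out. The cause of these moves was not tested.

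Signs turned only for member estimates that were not called. Without both libraries these were Esrra 0.058 and Tfam 0.18 for TAC in WT, Ppargc1b −0.068 for TAC in KO, Ppargc1a 0.14, Ppargc1b 0.0028 and Nrf1 −0.076 after sham, Ppard −0.0077 for KO against WT after TAC, and Ppard −0.15 and Rxra −0.31 for the interaction. Without the filter they were Ppargc1b −0.016 for TAC in KO, and Ppard −0.0095 and Rxra −0.0078 for the interaction. Nrf1 after sham was −0.0063 with DESeq2 size factors, −0.0032 with counts of the mitochondrial genome left out and −0.017 with DESeq2, and Ppara for the interaction was 0.10 with the replicate block. With 1 library left out the ranges that spanned 0 were, for TAC in WT, Esrra −0.29 to 0.047 and Tfam −0.28 to 0.16; for TAC in KO, Ppard −0.16 to 0.033 and Ppargc1b −0.076 to 0.21. After sham they were Ppard −0.058 to 0.13, Ppargc1a −0.85 to 0.12, Ppargc1b −0.30 to 0.029 and Nrf1 −0.089 to 0.081. For KO against WT after TAC it was Ppard −0.0028 to 0.12. For the interaction they were Ppara −0.50 to 0.36, Ppard −0.061 to 0.12, Ppargc1a −0.89 to 0.077, Esrra −0.34 to 0.054, Esrrg −0.68 to 0.093 and Rxra −0.15 to 0.24.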
